A study of Homo sapiens with 32 samples.

Results

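The comparison is that of RO4929097 with vehicle after 24 h in H460a, a human lung cancer line that the series text calls H460, a line derived from a large cell carcinoma. The 8 arrays were taken by their titles, 4 with RO4929097 and 4 with vehicle, out of 32 arrays in the series. RO4929097 is a small-molecule inhibitor of gamma-secretase, and the series text gives a dose of 2 µM (it prints the compound's number with another prefix). The other 24 arrays are the 6 h samples of H460a and the same treatments in A549, a lung adenocarcinoma line. Per the labels, cells of every group were plated at 35% confluency and rested overnight before dosing, and RNA was prepared from cell lysates with RNeasy columns. H460a is a single line in culture, so signals from stromal or immune cells of a tumour are not part of this model. Whether the 4 arrays of a group stand for separate cultures is not stated in the labels, and the spread behind each p-value may therefore be only technical.

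Gamma-secretase is a protease complex built from presenilin, nicastrin, APH1 and PEN-2 that cuts single-pass membrane proteins inside the membrane. When a Jagged or Delta ligand on a neighbouring cell pulls on a Notch receptor, an ADAM protease sheds the receptor's outer part and gamma-secretase then frees its intracellular domain. That domain enters the nucleus, joins the DNA-binding protein RBPJ and a Mastermind coactivator, and switches on genes such as those of the HES and HEY repressors. Inhibiting gamma-secretase keeps the domain at the membrane, and a lower level of these targets is the usual readout.

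The deposited intensities were taken to log2, so a difference of 1 is a doubling, and 19775 genes were each read from 1 probe set. Array 3 with RO4929097 had the lowest mean intensity, 570.2, against 592.7 to 613.5 for the other 15 H460a arrays. Mean intensity was 594.8 ± 18.1 with RO4929097 and 599.1 ± 4.26 with vehicle (SD, n = 4 each), a difference of -4.23 (exact two-sided permutation test, p = 0.743, where the smallest p possible is 0.0286). Pairwise correlations among the 8 arrays lay between 0.993 and 0.998. Results are given with all 4 RO4929097 arrays. The main counts and list medians, and the values of some genes, are given without array 3 as well. The keratins of simple epithelia were abundant in all 8 arrays, with KRT18 between 13.66 and 13.88 and KRT19 between 13.66 and 13.87 log2 intensity. VIM, the intermediate filament of mesenchymal cells, stood between 14.71 and 14.81. The epithelial adhesion genes EPCAM (4.58 to 4.98) and CDH1 (4.37 to 4.85) lay below 5.14, the 25th percentile of probe sets in these arrays. The summed level of 15 fibroblast markers was 14.60 to 14.81 with RO4929097 and 14.55 to 14.72 with vehicle on the log2 scale, and that of 15 leukocyte and endothelial markers was 11.26 to 11.49 with RO4929097 and 11.15 to 11.39 with vehicle.

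The HES and HEY genes, which encode transcriptional repressors, did not pass the test in H460a at 24 h. The promoters of HES1 and HES4 are shown because they hold the core letters bound by RBPJ, the partner of the Notch intracellular domain, and were chosen after the values were seen. Each is the 150 bases upstream of the RefSeq start in GRCh38.p14, with TGGGAA in capitals.
HES1: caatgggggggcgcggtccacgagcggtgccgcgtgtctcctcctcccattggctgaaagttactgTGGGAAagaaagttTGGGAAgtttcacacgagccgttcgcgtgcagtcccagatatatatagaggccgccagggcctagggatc
HES4: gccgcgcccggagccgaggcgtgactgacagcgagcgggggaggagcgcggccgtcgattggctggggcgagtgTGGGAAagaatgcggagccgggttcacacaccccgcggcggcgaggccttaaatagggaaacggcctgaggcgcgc
The HES1 window is chr3:194135998-194136147 on the plus strand and holds 2 matches, which begin 84 and 70 bases before the start. The HES4 window is chr1:1000098-1000247, read on the minus strand, and holds 1 match, 76 bases before the start. Both strands were searched for TGGGAA, and 4513 of 35116 RefSeq promoter windows of this length held it (12.9%), 409 of them at least 2 times (1.16%). The windows of NRARP and TTC17 held none, and that of HEYL held 1. Those of HEY1 and NOTCH3 were not examined singly. A match is a description of the letters and not evidence of a bound site.

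HES1 had 5.85, 6.37, 6.39 and 5.98 log2 intensity with RO4929097, against 6.24, 6.33, 6.54 and 6.64 with vehicle. Arrays 1 and 4 with RO4929097 lay below every vehicle array, while arrays 2 and 3 lay within the vehicle range. The difference was -0.29 ± 0.13 (SE, 95% CI -0.55 to -0.03 before adjustment, limma adjusted p = 0.823), and all 8 values were close to or below the median probe set of these arrays, 6.60. Its other probe sets gave smaller differences, -0.05 and -0.08. HEY1 had 8.23, 8.12, 8.05 and 8.13 with RO4929097, against 8.40, 8.34, 8.56 and 8.43 with vehicle. The groups did not overlap, and the difference was -0.30 ± 0.08 (adjusted p = 0.339); its second probe set gave -0.11. Of all 19775 genes, 668 had groups of 4 arrays that did not overlap (3.38%), 360 of them higher with RO4929097 (1.82%) and 308 lower (1.56%). HES4 had 7.76, 7.87, 7.78 and 7.91 with RO4929097, against 7.96, 8.03, 8.001 and 8.09 with vehicle. These groups did not overlap either, and the difference was -0.19 ± 0.10 (adjusted p = 0.908).

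Other genes known to follow Notch in various cell types gave differences of both signs. HEYL, the third HEY family member, differed by -0.02 ± 0.11, with overlapping groups, and by -0.06 without array 3. NRARP, which encodes a small ankyrin protein that binds the Notch complex and limits it, had 8.21, 8.23, 8.23 and 8.21 with RO4929097, against 8.08, 8.16, 8.17 and 8.15 with vehicle. Its RO4929097 arrays were thus all slightly higher, by 0.08 ± 0.07 (adjusted p = 0.983). NOTCH3, both a receptor and a target of Notch signalling, was abundant, with 12.62, 12.53, 12.60 and 12.69 in RO4929097 arrays and 12.71, 12.73, 12.73 and 12.76 in vehicle arrays. All 4 RO4929097 values were below the vehicle values, and the difference was -0.12 ± 0.08 (adjusted p = 0.931). The second probe set of NOTCH3, of lower level, gave -0.39 with overlapping groups. MYC (difference -0.04 ± 0.06) and CCND1 (0.03 ± 0.08), which drive cell growth and entry into the cycle, had narrow 95% intervals of -0.17 to 0.09 and -0.13 to 0.19; without array 3 their differences were -0.05 and 0.08. SNAI2, a repressor of epithelial genes, had 7.53, 7.70, 7.38 and 7.75 with RO4929097, against 8.01, 8.17, 7.73 and 8.01 with vehicle. Only array 4 with RO4929097 reached the lowest vehicle value, and the difference was -0.39 ± 0.13 (adjusted p = 0.536). EFNB2, an ephrin ligand of vascular and epithelial boundaries, differed by -0.40 ± 0.13 (adjusted p = 0.518). In the other direction, BCL2 differed by 0.26 ± 0.08 (adjusted p = 0.507) and GATA3 by 0.22 ± 0.11 (adjusted p = 0.849). Without array 3 their differences were 0.24 and 0.07. Across the list of Notch targets, 30 of 32 genes were measured, and 0 passed the test in either direction, beside 1 of 19775 genes on the array (0.00506%). At an unadjusted p under 0.05, 2 of the 30 were higher and 6 of the 30 lower, beside 643 (3.25%) and 502 (2.54%) of 19775 genes. Groups did not overlap for 2 of the 30 that were higher and 4 that were lower, beside 1.82% and 1.56% of all genes. The members were chosen with earlier results of these data known, so these counts are a description and not a test. Of the 30, 14 differences were above 0 and 16 below, with a median of -0.01, beside a median of -0.00 over all genes; without RO4929097 array 3 the list's median was -0.04.

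**Figure D1:**
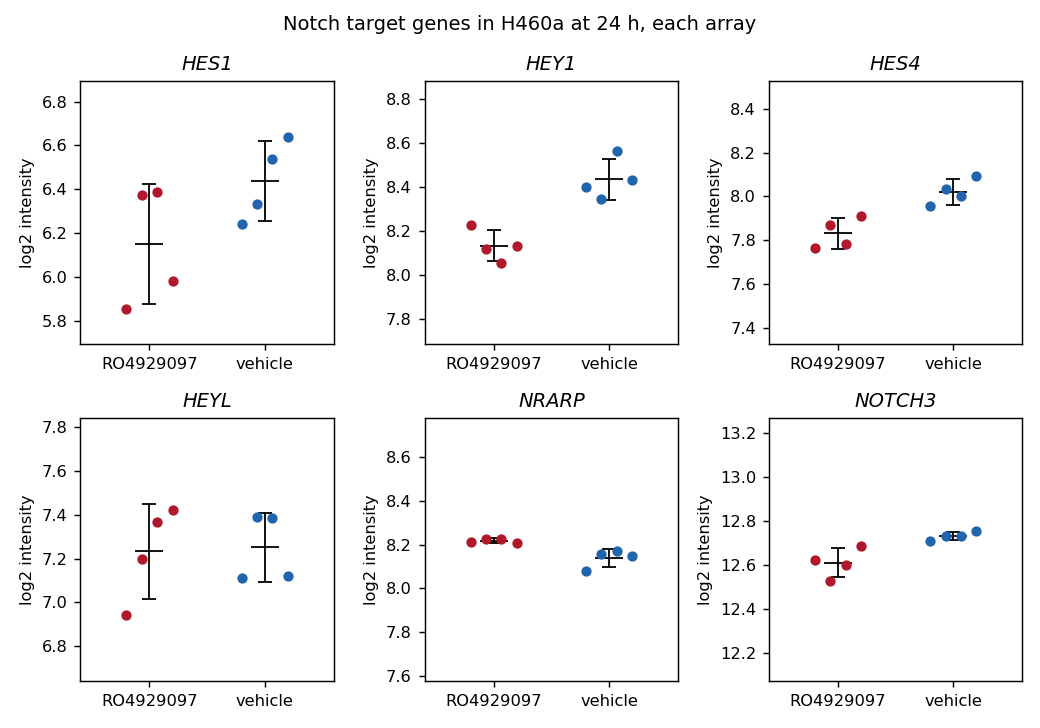
Log2 intensity of 6 Notch target genes in the 4 RO4929097 arrays (red, left) and 4 vehicle arrays (blue, right) of H460a at 24 h, with the mean and SD as bars and every vertical axis spanning 1.2 log2 units. HEY1, HES4 and NOTCH3 arrays lie lower with RO4929097 without overlap, with differences of -0.30, -0.19 and -0.12; NRARP arrays lie higher by 0.08, and the HES1 and HEYL groups overlap.

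None of the receptors, ligands and nuclear partners passed the test. NOTCH2, the receptor with the larger difference, had 10.03, 9.996, 9.82 and 10.08 with RO4929097, against 10.22, 10.26, 10.22 and 10.19 with vehicle. The groups did not overlap (difference -0.24 ± 0.08, adjusted p = 0.525), and of its other 3 probe sets 2 were lower as well, with differences of -0.15 and -0.31, and 1, with a mean of 5.53 in RO4929097 arrays and 5.37 in vehicle arrays, was higher. NOTCH1 differed by -0.00 ± 0.08, the ligand genes JAG1 and JAG2 by 0.05 ± 0.10 and -0.08 ± 0.06, and RBPJ by -0.07 ± 0.08. Without RO4929097 array 3 the differences of NOTCH1, JAG1 and RBPJ were -0.06, 0.15 and -0.11 (adjusted p between 0.896 and 0.965). MAML2, a Mastermind coactivator, differed by -0.23 ± 0.11 (adjusted p = 0.856). All 35 genes on this list were measured, 0 passed in either direction, and their median was -0.02. None of the 5 listed genes of the drug's own target passed the test, and their median difference was 0.07 with all arrays and 0.16 without RO4929097 array 3. PSEN2, a catalytic presenilin, differed by 0.07 ± 0.08, NCSTN, the substrate-binding nicastrin, by 0.05 ± 0.06, and APH1B, a scaffold subunit, by -0.02 ± 0.07. PSENEN, which encodes PEN-2, was uneven within both groups, with 9.72, 9.73, 8.78 and 8.42 in RO4929097 arrays and 8.86, 8.87, 9.65 and 8.77 in vehicle arrays. Arrays 1 and 2 with RO4929097 and array 3 with vehicle stood between 9.65 and 9.73 and the other 5 between 8.42 and 8.87, and the difference was 0.13 ± 0.25. APH1A was uneven in the same arrays, with 11.25, 11.54, 10.67 and 10.77 with RO4929097 and 10.86, 10.86, 11.30 and 10.89 with vehicle (difference 0.08 ± 0.13). Without RO4929097 array 3 the differences were 0.16 for PSEN2, 0.20 for APH1A, 0.25 for PSENEN and -0.07 for APH1B, and none passed (adjusted p between 0.750 and 0.956).

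Across the whole array, 1 of 19775 genes passed an adjusted p of 0.05, 0.00506% of those tested; it was higher with RO4929097, and 0 genes (0%) were lower. At an unadjusted p under 0.05 there were 1145 genes (5.79%), of which 643 (3.25%) were higher and 502 (2.54%) lower. Without RO4929097 array 3, 0 genes passed (0%), with a lowest adjusted p of 0.0516, and 1201 genes (6.07%) had an unadjusted p under 0.05. The number of arrays limits the precision, and the median standard error of a difference was 0.0874, with a median 95% interval of ±0.178. For 19608 genes (99.2%) the interval lay within -0.58 to 0.58, and for 19766 genes (99.95%) it lay within -1 to 1. With all arrays, only ZNF595, a zinc finger gene with 4.16 to 5.06 with RO4929097 and 4.93 to 5.82 with vehicle, differed by more than 0.58 in size. Its difference was -0.68 ± 0.20, and it did not pass the test (adjusted p = 0.462). Without RO4929097 array 3, 6 genes differed by at least 0.58 in size and none passed, among them ZNF595 (-0.70), SLC35G2 (-0.73, adjusted p = 0.0516), the nuclear RNA MALAT1 (0.71) and PXDN (0.65, adjusted p = 0.0516).

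The gene that passed was TTC17, which encodes a tetratricopeptide repeat protein with a role in actin organisation and cilium formation. TTC17 had 10.01, 10.18, 10.10 and 10.14 log2 intensity with RO4929097, against 9.67, 9.72, 9.67 and 9.71 with vehicle. Every RO4929097 array was higher than every vehicle array, and both groups were tight. It rose by 0.42 ± 0.07 with RO4929097 (95% CI 0.27 to 0.56, limma adjusted p = 0.0310), and in A549 at 24 h the difference was 0.16 ± 0.07 (adjusted p = 0.354). Of its other 5 probe sets, 3 gave higher means with RO4929097, by 0.37, 0.23 and 0.33, and 2 of lower level differed by -0.11 each. When all probe sets were tested together none of the 6 passed, and the adjusted p of the one used for the gene was 0.127. The call was close to the limit. It was kept without RO4929097 array 1 (adjusted p = 0.0323) or vehicle array 4 (0.0422). It was lost without RO4929097 array 2 (0.148), 3 (0.0516) or 4 (0.221) and without vehicle array 1 (0.184), 2 (0.110) or 3 (0.0941), while the difference stayed between 0.39 and 0.45.

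**Figure D2:**
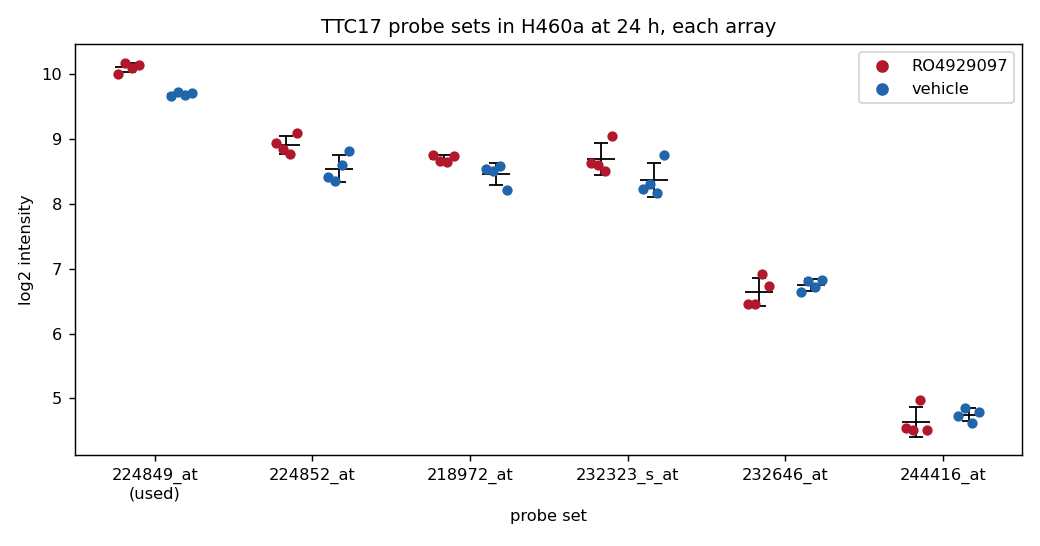
Log2 intensity of the 6 probe sets of TTC17 in H460a at 24 h, each with its 4 RO4929097 arrays (red, left) and 4 vehicle arrays (blue, right), and the mean and SD as bars. The probe set used for the gene stands highest and has groups that do not overlap; 3 others are higher with RO4929097, by 0.23 to 0.37, and the 2 dimmest are not.

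The genes closest to the threshold were named after their values were seen, and none passed with all arrays in the planned fit, where the second lowest adjusted p was 0.188. SLC51B, the beta subunit of the bile acid and steroid exporter, had 8.31, 8.41, 8.17 and 8.16 with RO4929097, against 7.80, 7.92, 7.93 and 7.85 with vehicle. The groups did not overlap, with a difference of 0.39 ± 0.08 (adjusted p = 0.188), and SLC51B was higher with RO4929097 in A549 as well, where it rose by 0.71 ± 0.08 (adjusted p = 4.03e-07). EFNA1, an ephrin ligand, had 11.07, 11.11, 11.21 and 10.98 with RO4929097, against 11.35, 11.37, 11.38 and 11.38 with vehicle. All RO4929097 values were lower, with a difference of -0.28 ± 0.06 (adjusted p = 0.188), and of -0.32 without RO4929097 array 3 (adjusted p = 0.0516). PXDN, a peroxidase that crosslinks basement membrane collagen, had 7.33, 6.84, 6.82 and 7.35 with RO4929097, against 6.73, 6.44, 6.69 and 6.24 with vehicle (difference 0.56 ± 0.12, adjusted p = 0.190). Both groups were spread, with arrays 1 and 4 high among those with RO4929097, and did not overlap. Without array 3 the adjusted p was 0.0516. The second probe set of PXDN gave 0.22, with overlapping groups. With array weights SLC51B and EFNA1 passed (adjusted p = 0.0120 and 0.0270), and EFNA1 also did with an offset of 32 before log2 (adjusted p = 0.0279). RGCC, a regulator of the cell cycle, had 8.02, 7.93, 7.66 and 7.89 with RO4929097, against 8.28, 8.35, 8.35 and 8.49 with vehicle (difference -0.50 ± 0.11, adjusted p = 0.190). Its other probe sets, of lower level, gave -0.02 and -0.27. EPSTI1, an interferon-induced gene, had 7.44, 7.45, 7.40 and 7.40 with RO4929097, against 7.76, 8.03, 8.08 and 7.89 with vehicle (difference -0.52 ± 0.12, adjusted p = 0.206). For RGCC and EPSTI1 the RO4929097 arrays all lay below the vehicle arrays. In A549 at 24 h the signs were opposite, with differences of 0.40 for RGCC (adjusted p = 0.0386) and 0.27 for EPSTI1 (adjusted p = 0.347). PXDN and EFNA1 differed by -0.12 and -0.01 there. The effect in H460a minus that in A549 passed for RGCC (-0.89, adjusted p = 0.00115) and EPSTI1 (-0.79, adjusted p = 0.0147). It did not pass for SLC51B, EFNA1 or PXDN (adjusted p = 0.289, 0.198 and 0.0627).

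The gene lists gave the same result: of 994 listed genes in 43 lists, 912 were measured and 0 passed the test, while 71 (7.79%) had an unadjusted p under 0.05, beside 5.79% of all genes. The median difference lay within -0.05 to 0.05 for 34 lists and within -0.1 to 0.1 for 42. Cholesterol synthesis lay outside both ranges. Without RO4929097 array 3 these counts were 38 and 41, and the lists outside -0.1 to 0.1 were the gamma-secretase complex, at 0.16, and cholesterol synthesis. Of the cholesterol list's 19 measured genes, 17 had a difference above 0, beside 47.8% of all genes, with a median of 0.11. Relative to the vehicle mean, the list's median was 0.21, 0.16, 0.02 and 0.10 in the RO4929097 arrays. It was -0.01, -0.08, 0.08 and 0.03 in the vehicle arrays, so the groups overlapped. DHCR7, the enzyme of the last step to cholesterol, had 10.86, 10.76, 10.83 and 10.73 with RO4929097, against 10.59, 10.48, 10.57 and 10.45 with vehicle. The groups did not overlap, and the difference was 0.27 ± 0.06 (adjusted p = 0.242). MSMO1 (0.29 ± 0.09), EBP (0.22 ± 0.09) and FDPS (0.17 ± 0.06), other enzymes of the pathway, did not pass either. Without RO4929097 array 3, 18 of 19 differences were above 0, beside 50.9% of all genes, and the median was again 0.11; in A549 at 24 h the list's median was 0.19, and 6 of its genes passed the test, all higher (background 1.32% of genes). Fatty acid synthesis had a median of 0.08, with ACSS2, which makes acetyl-CoA from acetate, at 0.21 ± 0.07 (adjusted p = 0.543).

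Cell cycle genes lay slightly below 0. Of 40 measured genes of G2 and mitosis, 39 had a difference below 0, beside 52.2% of all genes, with a median of -0.10, and of 42 S phase genes 38 did, with a median of -0.09. CCNE1, the cyclin that starts S phase, had 8.35, 8.22, 8.21 and 8.26 with RO4929097, against 8.44, 8.48, 8.49 and 8.56 with vehicle. The groups did not overlap, and the difference was -0.23 ± 0.06 (adjusted p = 0.371). CCNA2 (-0.17 ± 0.08) and TTK (-0.25 ± 0.11), a cyclin and a spindle checkpoint kinase, did not pass; without RO4929097 array 3 they differed by -0.16 and -0.13. Array 3 with RO4929097 lay lowest for both lists. Relative to the vehicle mean, the G2 and mitosis genes had a median of 0.00, -0.07, -0.26 and -0.06 in the 4 RO4929097 arrays, and 0.01, -0.05, 0.03 and 0.03 in the vehicle arrays. These medians of the 2 groups overlapped. Without array 3 the median of the G2 and mitosis genes was -0.04, with 31 of 40 below 0, and that of S phase was -0.04, with 30 of 42 below 0. Of all 19775 genes, 9719 were then below 0. In A549 at 24 h the medians of both lists were -0.09, beside 0.01 over all genes. In bulk RNA, fewer cells in a phase and less RNA per cell cannot be told apart.

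With all arrays, the other lists had medians within -0.1 to 0.1. Among them, IGF and insulin signalling and YAP and TEAD targets each had a median of -0.07. Without RO4929097 array 3 their medians were -0.06 and -0.03. TGF-beta response genes had a median of -0.05 and, without array 3, of -0.00. Ribosomal protein genes, with 20 measured, had a median of 0.00. Endoplasmic reticulum stress genes had a median of 0.06, with 18 of 24 above 0, beside 47.8% of all genes. SDF2L1, a chaperone cofactor of that compartment, had 10.70, 10.60, 10.49 and 10.60 with RO4929097, against 10.31, 10.30, 10.49 and 10.48 with vehicle (difference 0.20 ± 0.09, adjusted p = 0.808). Array 3 with RO4929097 was level with the higher vehicle arrays, and the other 3 were above all 4.

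**Figure D3:**
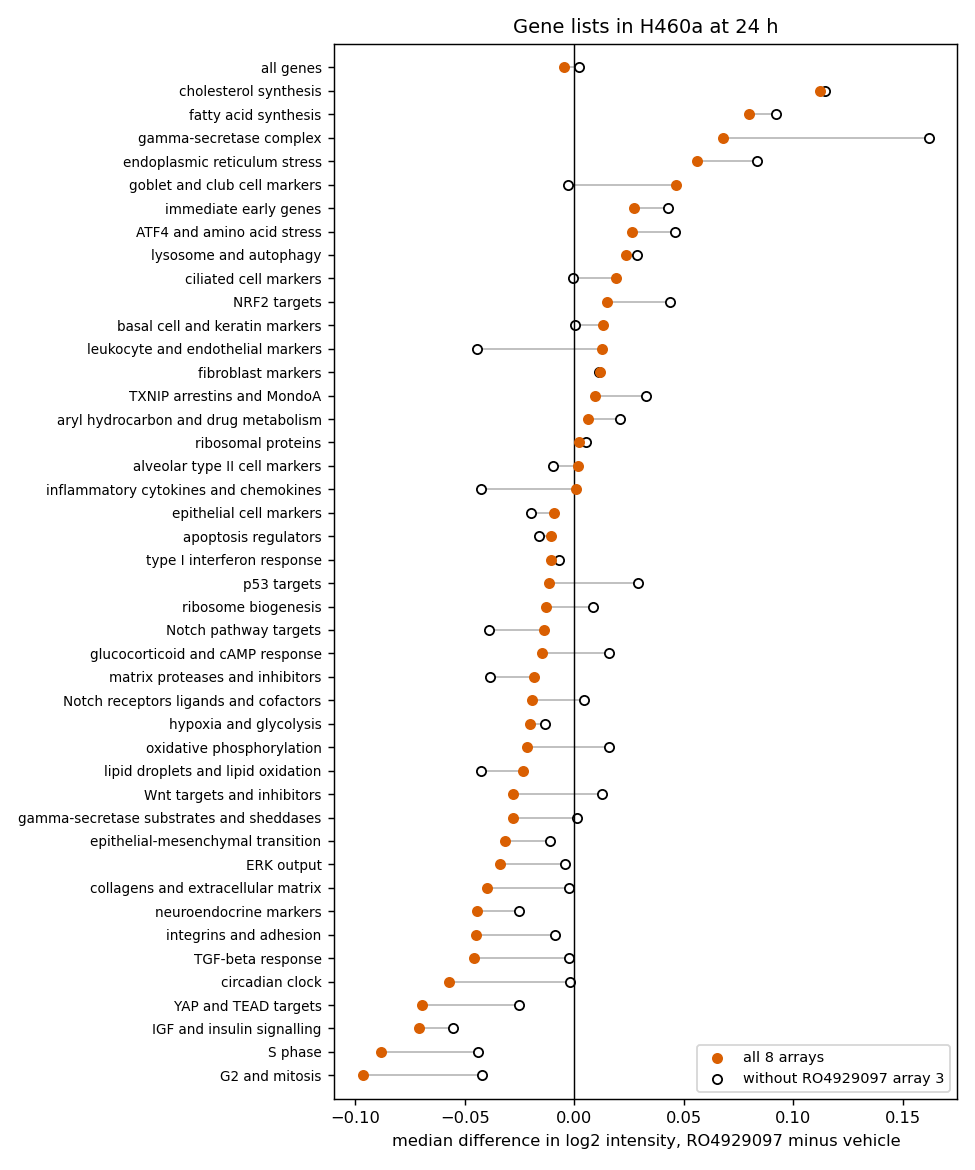
Median difference in log2 intensity, RO4929097 minus vehicle, over the measured genes of each of 43 lists and of all genes (top row), with all 8 arrays (filled) and without RO4929097 array 3 (open). Cholesterol synthesis stays at 0.11 in both; G2 and mitosis is at -0.10 with all arrays and at -0.04 without that array.

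Whether the compound's effect at 24 h differed between the lines was tested as the difference of effects, H460a minus A549. This difference passed for 126 of 19775 genes (0.637%), 54 of them higher (0.273%) and 72 lower (0.364%). Of the 126, 0 passed in H460a at 24 h and 113 in A549 at 24 h. For 120 of them the 95% interval of the H460a effect lay within -0.58 to 0.58, and 12 were under the 25th percentile of probe sets (5.14) in both H460a groups. HES1 had the largest difference of effects, 1.89 ± 0.18 (limma adjusted p = 4.78e-08). It averaged 6.15 ± 0.27 with RO4929097 and 6.44 ± 0.18 with vehicle in H460a (SD, n = 4 each), against 7.80 ± 0.14 with RO4929097 and 9.99 ± 0.12 with vehicle in A549. HES1 was thus lower in H460a with vehicle than in A549 with RO4929097. For HEY1 and HES4, which fell in A549 by 0.62 and 0.50, the difference of effects was 0.32 ± 0.11 and 0.31 ± 0.15 and did not pass (adjusted p = 0.278 and 0.526).

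Of the 54 genes on the higher side, 8 belonged to the TGF-beta response list, of 35 measured, beside 0.273% of all genes. Its members were chosen with earlier results of these data known, so these shares are a description and not a test. In H460a 0 genes of that list passed, and in A549 15 passed and were lower (background 0.885%). PMEPA1, a TGF-beta-induced inhibitor of SMAD signalling, had 7.89, 7.70, 7.49 and 7.63 with RO4929097 and 7.55, 7.58, 7.89 and 7.63 with vehicle in H460a. The groups overlapped fully (difference 0.01 ± 0.07, 95% CI -0.14 to 0.16, and 0.08 without array 3), while PMEPA1 fell by 1.74 in A549, and the difference of effects was 1.76 ± 0.11 (adjusted p = 4.84e-13). SPOCK1, a secreted proteoglycan, was abundant in H460a, with 13.36, 13.42, 13.43 and 13.41 with RO4929097, against 13.34, 13.38, 13.44 and 13.38 with vehicle. Its effect there was 0.02 ± 0.08, against a fall by 1.06 in A549 (difference of effects 1.08 ± 0.11, adjusted p = 2.05e-07). KLF10, a TGF-beta-inducible repressor, stood at 10.31 to 10.96 with RO4929097 and 10.71 to 10.86 with vehicle, and differed by -0.10 ± 0.10 in H460a (0.03 without array 3) and -0.83 in A549 (adjusted p of the difference of effects 0.00961). JUNB, an AP-1 subunit, differed by 0.08 in H460a and -0.81 in A549 (adjusted p of the difference of effects 2.44e-07). TFPI2, a secreted protease inhibitor, stood at 12.85 to 13.08 with RO4929097 and 12.90 to 13.04 with vehicle in H460a. It differed by 0.00 ± 0.07 there and by -0.71 ± 0.07 in A549 (adjusted p of the difference of effects 0.000177). SPOCK1, KLF10, JUNB (10.95 with RO4929097 and 10.87 with vehicle) and TFPI2 were all well above the median probe set, 6.60, in H460a. TNFAIP6, a hyaluronan-binding protein, averaged 4.65 in both groups of H460a, and C3orf80 averaged 3.84 ± 0.25 with RO4929097 and 3.72 ± 0.22 with vehicle, both under the 25th percentile of probe sets. RNF182, an E3 ubiquitin ligase, had 4.49, 4.62, 4.73 and 4.67 with RO4929097, against 4.14, 4.32, 4.14 and 4.43 with vehicle in H460a, under that percentile as well. Its H460a groups did not overlap but did not pass the test (difference 0.37 ± 0.10, adjusted p = 0.371), and the difference of effects was 1.36 ± 0.14 (adjusted p = 2.44e-07).

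On the lower side, 3 genes of the goblet and club cell list passed. The members of this list, too, were chosen with earlier results of these data known, so its counts are a description. In H460a 0 of the list's 20 measured genes passed at 24 h, and in A549 5 passed and were higher (background 1.32%). BPIFA1, a secreted airway defence protein, had 6.10, 6.23, 6.42 and 6.24 with RO4929097, against 6.21, 6.08, 6.23 and 6.30 with vehicle in H460a. The groups overlapped (difference 0.04 ± 0.10, and -0.01 without array 3), while BPIFA1 rose by 1.38 ± 0.10 in A549, and the difference of effects was -1.33 ± 0.14 (adjusted p = 4.24e-07). FCGBP, a mucus protein, had a difference of effects of -0.93 (adjusted p = 0.000406), and AGR2, a disulfide isomerase of mucin folding that was abundant in H460a (14.2 with RO4929097 and 14.1 with vehicle), had -0.63 (adjusted p = 0.000731). The share of all genes on the lower side was 0.364%. TM4SF20, a tetraspan membrane protein, had 7.59, 7.80, 7.57 and 7.40 with RO4929097, against 7.39, 7.33, 7.36 and 7.14 with vehicle in H460a. The 4 RO4929097 arrays were above all vehicle arrays, by 0.29 ± 0.10 (adjusted p = 0.595), and TM4SF20 rose by 1.48 ± 0.10 in A549 (difference of effects -1.19 ± 0.14, adjusted p = 4.46e-06). RBP4 (-1.08 ± 0.20), ATP8B4 (-0.97 ± 0.13), RAB37 (-0.95 ± 0.18) and CIDEC (-0.93 ± 0.14) completed the 6 largest differences of effects on this side (adjusted p between 7.92e-05 and 0.00475). They encode a retinol carrier, a phospholipid flippase, a secretory GTPase and a lipid droplet protein. In H460a, RBP4 averaged 6.66 with RO4929097 and 6.47 with vehicle, ATP8B4 5.93 and 6.11, RAB37 5.50 and 5.67, and CIDEC 6.86 and 6.89. The median probe set of these arrays was 6.60. With vehicle in A549 at 24 h, RBP4, ATP8B4, RAB37 and CIDEC averaged 10.20, 6.25, 7.79 and 8.04. All 12 named differences of effects passed again without RO4929097 array 3.

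**Figure D4:**
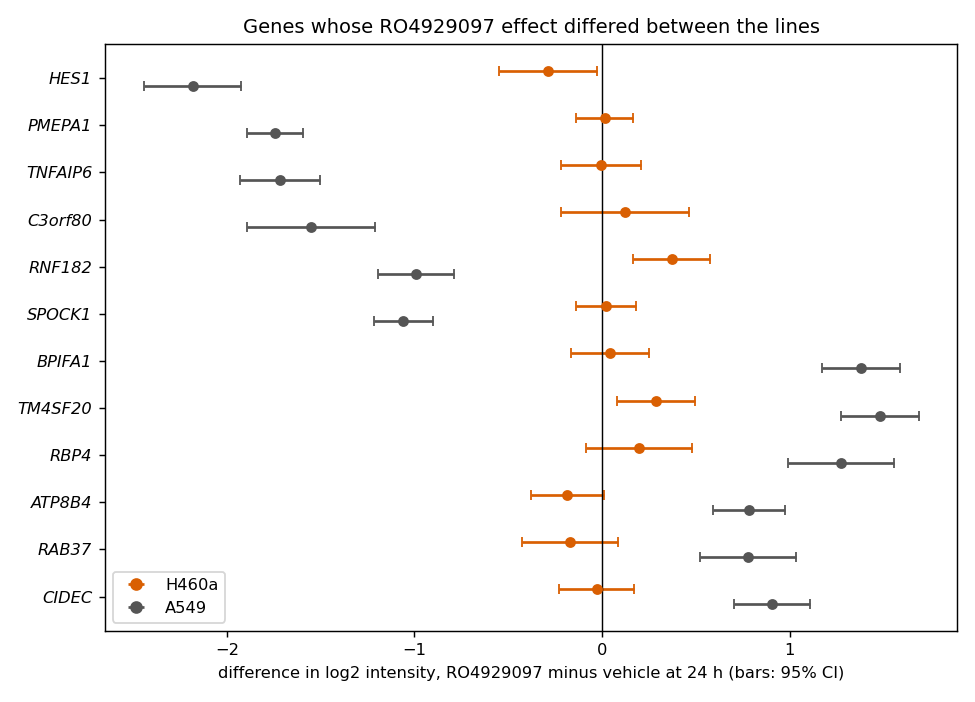
Difference in log2 intensity, RO4929097 minus vehicle at 24 h, in H460a (orange, upper of each pair) and A549 (grey, lower) for the 12 named genes whose effect differed between the lines, with 95% CI. The H460a values lie between -0.29 and 0.37, and the A549 values lie beyond 0.77 in size.

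The 437 genes that passed in A549 at 24 h (2.21%) were also followed in H460a. Of the 262 genes higher in A549, 147 (56.1%) had a difference above 0 in H460a, with a median of 0.02, beside 47.8% of all genes. Of the 175 genes lower in A549, 117 (66.9%) had a difference below 0, with a median of -0.05, beside 52.2% of all genes. RO4929097 array 3 weighed on the second of these: without it, 150 (57.3%) and 96 (54.9%) shared the direction. Of all 19775 genes, 10056 (50.9%) then had a difference above 0 and 9719 below. Over all 437, the H460a and A549 differences had a Pearson correlation of 0.26 and a Spearman correlation of 0.23, a description across genes, which are not independent replicates.

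In H460a itself, the effect of RO4929097 at 24 h was lower than that at 6 h for 2 genes, both of the endoplasmic reticulum stress response, which is set off by unfolded protein in that compartment. At 6 h, 19 genes passed (0.0961%), 14 higher (0.0708%) and 5 lower (0.0253%), and the effect at 24 h minus that at 6 h passed for those 2 (0.0101%). HERPUD1, which takes part in the degradation of misfolded membrane proteins, had 11.46, 11.27, 11.18 and 11.23 with RO4929097 at 24 h, against 11.30, 11.22, 11.28 and 11.23 with vehicle. These overlapped fully. At 6 h it had 11.79, 11.83, 11.83 and 11.82 with RO4929097, against 10.96, 10.92, 11.22 and 11.03 with vehicle, and every RO4929097 array was higher. It differed by 0.03 ± 0.06 at 24 h and rose by 0.78 ± 0.06 at 6 h (adjusted p = 3.42e-09), a difference of effects of -0.76 ± 0.09 (adjusted p = 3.65e-05). The average of its probe sets gave -0.30 and did not pass (adjusted p = 0.282). DNAJB9, a cochaperone of the same compartment, had 8.80, 8.64, 8.42 and 8.59 with RO4929097 at 24 h, against 8.59, 8.57, 8.53 and 8.62 with vehicle. At 6 h it had 9.64, 9.81, 9.80 and 9.86 with RO4929097, against 8.78, 8.83, 9.18 and 8.88 with vehicle. The 24 h groups overlapped and the 6 h groups did not, and the difference of effects was -0.82 ± 0.13 (adjusted p = 0.00277). SDF2L1 and DNAJC3 differed by 0.20 ± 0.09 and 0.14 ± 0.08 at 24 h (0.24 each without RO4929097 array 3), and rose by 0.54 ± 0.09 (adjusted p = 0.00277) and 0.43 ± 0.08 (adjusted p = 0.0119) at 6 h. For these the difference of effects did not pass (adjusted p = 0.556 and 0.570). The vehicle array 3 at 6 h stood apart for DNAJB9, with 9.18, and for SDF2L1, with 10.29; both differences of effects that passed did so without it. Of the 14 genes higher at 6 h, 9 had a difference above 0 at 24 h, and of the 5 lower, 3 had one below 0.

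**Figure D5:**
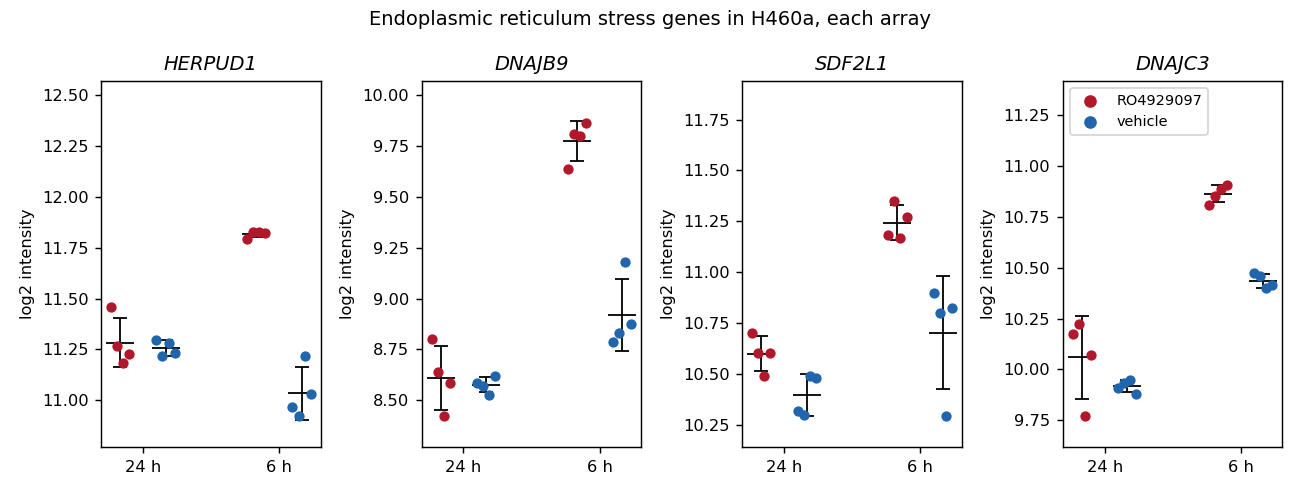
Log2 intensity of 4 endoplasmic reticulum stress genes in H460a at 24 h (left) and 6 h (right), with the 4 RO4929097 arrays (red) left of the 4 vehicle arrays (blue) at each time and the mean and SD as bars, all axes spanning 1.8 log2 units. For HERPUD1 and DNAJB9 the groups overlap at 24 h, and RO4929097 arrays are higher at 6 h by 0.78 and 0.86.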

How the data were processed

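RNA from 32 samples was measured on an Affymetrix array of 54675 probe sets. The authors deposited linear intensities, and the submitters' processing notes name RMA as the method; its settings were not given in the sources used here. They were taken to log2 with no further scaling. Control probe sets (62) were dropped, as were those naming several genes (1801) or none (11721). The remaining 41091 stood for 19775 genes, and each gene was read from its brightest probe set, by the mean of the 32 arrays. A model of 8 group means was fitted to all 32 arrays in limma 3.58.1 (lmFit, eBayes; R 4.3.3), with 31.9 degrees of freedom. P-values were adjusted by Benjamini-Hochberg over all genes within each contrast, with a threshold of 0.05. No scan date or batch was used. The steps were tested on simulated data.

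Named genes are those past the threshold, the Notch and gamma-secretase genes always given, and up to 6 genes in each direction for each difference of effects; further genes were named after their values were seen. The members, gene lists and alternatives were chosen with earlier results of these data known, and the lists come from general knowledge. Replicate numbers are shared across groups in the labels, and the deviations of same-numbered RO4929097 and vehicle arrays correlated by 0.12, -0.08, 0.02 and 0.20, so the numbers were not taken to pair the arrays. Promoter sequences are from RefSeq, GRCh38.p14. Figures were drawn with matplotlib in Python.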

Additional observations from a re-analysis of the deposited data

Results flagged for a closer look

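In the vehicle group at 24 h, array 3 stood apart for APH1A, at 11.30 log2 intensity against 10.86 to 10.89 in the other 3 vehicle arrays, and for PSENEN, at 9.65 against 8.77 to 8.87. These are 2 flags among 56 groups of 4 arrays examined, and chance flags about 1 in 20.

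The effect of RO4929097 at 24 h in H460a minus that in A549 passed the test for the 12 named genes. It was 1.89 for HES1, 1.76 for PMEPA1, 1.71 for TNFAIP6, 1.67 for C3orf80, 1.36 for RNF182 and 1.08 for SPOCK1. It was -1.33 for BPIFA1, -1.19 for TM4SF20, -1.08 for RBP4, -0.97 for ATP8B4, -0.95 for RAB37 and -0.93 for CIDEC. In H460a, the effect at 24 h minus that at 6 h was -0.82 for DNAJB9 and -0.76 for HERPUD1, both past the test.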

How the results depend on the processing

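The count of 1 gene past the threshold in H460a at 24 h was 0 when the 8 arrays or the 16 H460a arrays were fitted alone, with the mean of probe sets, centring, quantile normalization over the 16 H460a arrays, each probe set alone, all non-control probe sets or a minimum difference of 0.58. It was 2 without the 9 arrays that stand apart elsewhere in the series, 4 with an offset of 32 before log2, 2 with quantile normalization over 32 arrays and 10 with array weights. With the replicate number as a block it was 0, and leaving out each array in turn gave 0 to 3. TTC17 passed in 8 of 21 alternatives, with adjusted p between 0.00132 and 0.588, and its difference stayed above 0. The 14 genes always named passed in 0 of 292 alternatives. The count for 24 h minus 6 h, 2 genes, was 5 when those 9 arrays were left out, 1 with the mean of probe sets, 4 with quantile normalization over 32 arrays and 6 with array weights. It was 2 with the replicate block and 2 to 5 on leaving out each array. The count for H460a minus A549, 126 genes, was 283 with array weights, 65 with a minimum difference of 0.58, 111 with the replicate block and 72 to 117 on leaving out each array; the 12 named genes passed in all 302 alternatives. The difference in mean array intensity, -4.23, was 3.98 without RO4929097 array 3 (exact permutation p = 0.571), and that in median intensity was 0.666 (p = 0.629). The cause of these changes was not tested. Alternatives for the H460a 6 h and A549 arrays, for list medians and for all non-control probe sets were chosen after seeing the data. With 4 arrays a group, differences under about 0.178 lie within the median 95% interval.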
